A study of Homo sapiens with 6 samples.

Results

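Palbociclib and GSK3326595 were set against each other in A375 cells, library against library, to see which transcripts tell CDK4 and CDK6 inhibition from PRMT5 inhibition beyond the loss of cell division genes. Genes entered when both palbociclib libraries or both GSK3326595 libraries held at least 10 counts, which kept 15924 of 28395 gene IDs. A375 is an established human melanoma line with an activating BRAF mutation, and it is the 1 cell line here. The treated groups were 1 µM palbociclib for 72 h and 500 nM GSK3326595 for 72 h, which the sample titles code as PD991 and CTX, and the vehicle group received DMSO at 0.01%. Each group had 2 libraries of total RNA depleted of ribosomal RNA. The labels name no genetic change in any group. Whether the libraries of a group come from separate cultures is not said, so the p-values rest on a spread between libraries that may be technical.

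CDK4 and CDK6, with cyclin D, phosphorylate the retinoblastoma protein, which then releases E2F transcription factors that drive the genes of DNA replication. PRMT5, with its partner WDR77, places symmetric dimethyl marks on arginines of histones, Sm proteins and other RNA-binding proteins, and its loss is known to disturb the splicing of MDM4, a brake on p53. In melanoma, CDKN2A loss and BRAF signalling through cyclin D1 bear on the first pathway, and p53 is often held down by MDM2 and MDM4 rather than mutated. Gene counts sum the reads of a gene over its exons and do not see which exons were joined.

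Total counts ranged from 16589153 to 20842099 per library. A chi-square test found more than sampling noise between the libraries of each group, at 5.48 per degree of freedom with palbociclib, 10.7 with GSK3326595 and 8.33 in DMSO, so none was merged. Among defining melanocyte markers SOX10 was between 122 and 236 CPM and MITF between 57.2 and 87.2 CPM in the 6 libraries, whereas TYR was at 0 in 5 libraries and at 0.0584 CPM in the other, so the pigment end of the lineage is near absent. Of 10 blood markers 7 stayed under 1 CPM in every library, with CD68 the most abundant of the rest, as did 4 of 10 epithelial and 2 of 10 fibroblast and endothelial markers. CPM is the count scaled to 1000000 counts after TMM adjustment of the library size. For each gene the values of replicate 1 and replicate 2 are given in that order.

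Between the inhibitors, 5793 of 15924 genes (36.4%) were called by edgeR's quasi-likelihood test, that is, had a p adjusted by Benjamini-Hochberg under 0.05. Of all genes tested, 2722 (17.1%) were higher with palbociclib and 3071 (19.3%) were higher with GSK3326595. Differences of at least 2-fold made up 1054 of the calls (6.62% of genes tested), 667 higher with palbociclib and 387 higher with GSK3326595, so the larger differences leaned to palbociclib although the calls as a whole did not. Log2 fold changes are palbociclib minus GSK3326595 throughout, with an approximate standard error (SE), and the median over all genes was -0.03. The filter bears on this count: 712 genes passed it through palbociclib only and 290 through GSK3326595 only, and the 165 and 91 calls among them could go one way only. The total fell to 3417 without palbociclib replicate 1 and to 3518 without palbociclib replicate 2.

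**Figure D1:**
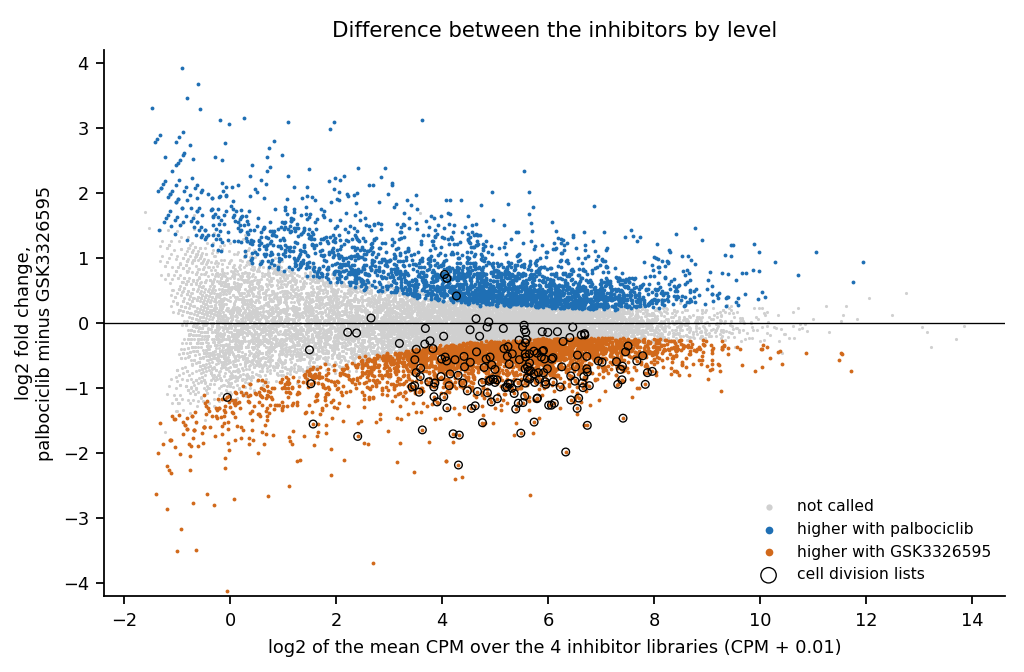
Each point is 1 of 15924 genes, by the log2 of its mean CPM over the 4 inhibitor libraries (horizontal) and its log2 fold change, palbociclib minus GSK3326595 (vertical); blue and orange mark the 2722 and 3071 calls in either direction and grey the genes not called. Calls in both directions run across the whole range of levels, and 5 genes lie beyond the vertical limits of 4.2.

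The shared arrest was not measured, and 4 lists of cell division genes were set aside in its place. These lists differed between the inhibitors as well. Other genes tied to division, such as CDK2, CDC25A and the histone gene H3C14, stayed outside them. Replication, mitosis, histone and recombination repair genes were higher with GSK3326595, that is, lower with palbociclib, in 140 of 175 cases, and higher with palbociclib in 2. This share of calls (81.1%) compares with 35.9% outside these lists. Set against DMSO, whose libraries both contrasts share, the replication list had a median log2 difference of -1.23 with palbociclib and -0.73 with GSK3326595, the mitosis list -1.47 and -0.78, the histones -2.28 and -1.16, and the repair list -1.32 and -0.80. In bulk RNA, fewer dividing cells and less RNA of these genes per cell cannot be told apart.

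For DNA replication and G1/S, 35 of 50 genes were higher with GSK3326595 (70%, against 19.3% of all genes tested) and 1 was higher with palbociclib (2%, against 17.1%). The median log2 fold change was -0.57. PRIM1, the catalytic subunit of primase, was at 8.49 and 8.91 CPM with palbociclib, 29.7 and 26.7 CPM with GSK3326595 and 39.9 and 44.3 CPM in DMSO (log2 fold change -1.70 ± 0.119, edgeR adjusted p = 4.87e-06). CDT1, which loads the MCM helicase onto origins, was at 30.98 and 28.5 CPM with palbociclib, 66.6 and 62.5 CPM with GSK3326595 and 84.9 and 85.2 CPM in DMSO (log2 fold change -1.12 ± 0.0909, edgeR adjusted p = 1.04e-05). RRM1, the large subunit of ribonucleotide reductase, was at 58.7 and 59.6 CPM with palbociclib, 132 and 131 CPM with GSK3326595 and 154 and 187 CPM in DMSO (log2 fold change -1.15 ± 0.0985, edgeR adjusted p = 1.32e-05). In all 3 genes the palbociclib libraries were lowest, the DMSO libraries highest and the GSK3326595 libraries between them with no overlap. Here and in the other lists such genes were chosen by the smallest p between the inhibitors. Lack of overlap between the inhibitor libraries therefore follows largely from that choice. GINS4, a subunit of the replicative helicase, went the other way, with 13.3 and 11.3 CPM under GSK3326595, 20.3 and 21.2 CPM under palbociclib and 27.5 and 30.8 CPM in DMSO (log2 fold change 0.75 ± 0.126, edgeR adjusted p = 0.000808). The 14 members not called included the helicase genes MCM3 (-0.18 ± 0.0814) and MCM5 (-0.13 ± 0.0846).

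Mitosis and G2/M genes were higher with GSK3326595 in 42 of 44 cases (95.5%, against 19.3% of all genes tested), and none was higher with palbociclib by edgeR. The median was -0.67 with a range from -0.99 to 0.08. MKI67 (chr10:128096659-128126423), the cycling cell marker Ki-67, was at 144 and 170.2 CPM with palbociclib, 302 and 298 CPM with GSK3326595 and 551 and 573 CPM in DMSO (log2 fold change -0.94 ± 0.0983, edgeR adjusted p = 4.73e-05). KIF2C, a kinesin that depolymerises microtubules at centromeres, was at 45.8 and 49.8 CPM with palbociclib, 93.5 and 84.5 CPM with GSK3326595 and 139 and 152 CPM in DMSO (log2 fold change -0.90 ± 0.0909, edgeR adjusted p = 3.84e-05). SMC4, a core subunit of condensin, was at 123 and 114 CPM with palbociclib, 228 and 207 CPM with GSK3326595 and 315 and 342 CPM in DMSO (log2 fold change -0.87 ± 0.0907, edgeR adjusted p = 4.31e-05). The order DMSO, GSK3326595, palbociclib from high to low held without overlap in each of these genes. The 2 members not called were INCENP (-0.16 ± 0.0972), of the chromosomal passenger complex, and the phosphatase gene CDC25C (0.08 ± 0.175).

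Promoter letters are shown for 1 replication and 1 mitosis gene, because both lists had medians below DMSO under either inhibitor and their motifs are textbook cell cycle elements. Sequences are from RefSeq (GRCh38.p14), 5′ to 3′ on the strand of the gene, each a window of 100 bases within the 250 bases before the transcript's start, and the capitals mark the motif. The E2F site was searched as TTTGGCGC or TTTCCCGC on both strands, and the cell cycle homology region as TTTGAA on both strands. For CDT1 the window is chr16:88803689-88803788, and for SMC4 it is chr3:160399530-160399629, both on the plus strand.
CDT1: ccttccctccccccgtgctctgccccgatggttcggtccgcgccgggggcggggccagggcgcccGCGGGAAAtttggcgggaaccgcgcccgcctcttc
SMC4: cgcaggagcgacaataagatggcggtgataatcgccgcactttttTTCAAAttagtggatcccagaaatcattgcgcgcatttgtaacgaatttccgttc
The E2F letters occurred in 9 of 31 called replication genes with a promoter entry, in 3 of 12 other members and in 2.93% of 12202 genes kept with an entry. TTTGAA occurred in 20 of 36 called mitosis genes, in 1 of the 2 other members and in 9.01% of all genes kept. A match is a description of the letters and not a bound site.

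Replication-dependent histones have transcripts that lack a poly(A) tail and so are seen only with ribosomal RNA depletion. They were higher with GSK3326595 in 46 of 53 genes (86.8%, against 19.3% of all genes tested), with a median of -1.07. None was higher with palbociclib by edgeR, although 1 was without palbociclib replicate 1. The linker histone gene H1-3 was at 53.3 and 54.4 CPM with palbociclib, 159 and 161 CPM with GSK3326595 and 369 and 423 CPM in DMSO (log2 fold change -1.57 ± 0.0924, edgeR adjusted p = 3.45e-06). A further linker histone gene, H1-4, was at 91.1 and 90.8 CPM with palbociclib, 246 and 255 CPM with GSK3326595 and 387 and 437 CPM in DMSO (log2 fold change -1.46 ± 0.0905, edgeR adjusted p = 3.91e-06). H4C6, a histone H4 copy, was at 26.9 and 28.1 CPM with palbociclib, 76.1 and 82.1 CPM with GSK3326595 and 179 and 218 CPM in DMSO (log2 fold change -1.52 ± 0.106, edgeR adjusted p = 4.87e-06). Palbociclib libraries were below GSK3326595 libraries and these below DMSO in all 3, and the split of reads among near-identical histone copies is uncertain. In recombination and Fanconi anaemia repair, 17 of 28 genes were higher with GSK3326595 (60.7%, against 19.3% of all genes tested), with a median of -0.54. They included BARD1 (-1.06 ± 0.125), the partner of BRCA1, the helicase BRIP1 (-0.92 ± 0.108) and BRCA2 (-0.86 ± 0.105), whose palbociclib libraries at 22.6 and 21.7 CPM lay below 43.3 and 37.4 CPM with GSK3326595. FANCM, a DNA translocase, was the 1 repair gene higher with palbociclib (log2 fold change 0.42 ± 0.124, edgeR adjusted p = 0.0196), a call lost without palbociclib replicate 1 (adjusted p = 0.0715), palbociclib replicate 2 (0.109) or GSK3326595 replicate 2 (0.0582).

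The transcripts of the drug targets separated unevenly. CDK4, CDK6 and RB1 did not pass the test between the inhibitors, while PRMT5 and cyclin D1 did, in opposite directions. CDK4 was at 226 and 231 CPM with palbociclib, 219 and 241 CPM with GSK3326595 and 248 and 270.1 CPM in DMSO, and CDK6 was at 438 and 458 CPM with palbociclib, 429 and 458 CPM with GSK3326595 and 465 and 528 CPM in DMSO. Their log2 fold changes were -0.01 ± 0.0879 (edgeR adjusted p = 0.938) and 0.01 ± 0.0966 (0.926), and RB1, the retinoblastoma gene, had 0.01 ± 0.0896 (0.924). In these 3 genes the libraries of the inhibitors overlapped, and for RB1 both groups, at 73.8 and 66.1 CPM and 69.6 and 68.97 CPM, were below the 94.6 and 104 CPM of DMSO.

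CCND1, which encodes cyclin D1, was at 838 and 844 CPM with palbociclib, 467 and 532 CPM with GSK3326595 and 502 and 479 CPM in DMSO (log2 fold change 0.75 ± 0.0988, edgeR adjusted p = 0.000173). Both palbociclib libraries stood above the other 4, which overlapped each other. Across cyclins, CDKs, CDK inhibitors and the RB and E2F families, 11 of 27 genes were higher with GSK3326595 (40.7%, against 19.3% of all genes tested) and 2 were higher with palbociclib (7.41%, against 17.1%), with a median of -0.32. CDK2, the kinase of S phase entry, was at 50.6 and 49.3 CPM with palbociclib, 84.6 and 85.4 CPM with GSK3326595 and 101 and 108 CPM in DMSO (log2 fold change -0.77 ± 0.0818, edgeR adjusted p = 5.06e-05). CDC25A, the phosphatase that activates CDK2, was at 28.96 and 34.3 CPM with palbociclib, 56.7 and 59.6 CPM with GSK3326595 and 76.1 and 87.7 CPM in DMSO (log2 fold change -0.88 ± 0.11, edgeR adjusted p = 0.000126). SKP2, the ubiquitin ligase subunit that removes p27, was at 65.1 and 65.5 CPM with palbociclib, 101 and 109.7 CPM with GSK3326595 and 115 and 128 CPM in DMSO (log2 fold change -0.69 ± 0.0867, edgeR adjusted p = 0.000134). In these 3 genes palbociclib libraries were lowest, DMSO libraries highest and GSK3326595 libraries between them, without overlap. CCND2, a further D-type cyclin gene, was the list's largest difference (-1.99 ± 0.333) but at low levels, with 0.556 and 0.575 CPM under palbociclib, 2.34 and 2.21 CPM under GSK3326595 and 0.168 and 0.156 CPM in DMSO. The other gene higher with palbociclib was E2F5 (0.70 ± 0.172), a repressive E2F, and the count of 2 became 1 without palbociclib replicate 1.

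PRMT5 itself (chr14:22920529-22929376) was higher under its own inhibitor, at 86.3 and 99.7 CPM, than under palbociclib, at 55.7 and 59.8 CPM, with DMSO at 66.6 and 76.1 CPM (log2 fold change -0.69 ± 0.1, edgeR adjusted p = 0.000335). The GSK3326595 libraries were highest and the palbociclib libraries lowest, without overlap. Of 15 arginine methyltransferase and methylosome genes 6 were higher with GSK3326595 (40%, against 19.3% of all genes tested), 1 was higher with palbociclib (6.67%, against 17.1%), and the median was -0.17. RIOK1, a kinase that brings substrates to PRMT5, was at 27.3 and 28.9 CPM with palbociclib, 40.7 and 47.7 CPM with GSK3326595 and 33.2 and 37.3 CPM in DMSO (log2 fold change -0.65 ± 0.113, edgeR adjusted p = 0.00104), and PRMT3, which acts on a ribosomal protein, had -0.50 ± 0.104. WDR77, the obligate partner of PRMT5, was at 92.6 and 97.6 CPM with palbociclib, 107 and 131 CPM with GSK3326595 and 81.01 and 94.1 CPM in DMSO (log2 fold change -0.32 ± 0.106, edgeR adjusted p = 0.0323). Its call was lost with DESeq2 (adjusted p = 0.0583), without palbociclib replicate 1 (0.171), palbociclib replicate 2 (0.086) or GSK3326595 replicate 2 (0.275, log2 fold change -0.16), and the list's 6 became 3 without palbociclib replicate 1 or GSK3326595 replicate 2. AHCY, which clears the by-product of methylation, was the 1 gene higher with palbociclib (log2 fold change 0.29 ± 0.0837, edgeR adjusted p = 0.0174), a call lost without either palbociclib library (0.13 and 0.105) or without GSK3326595 replicate 1 (0.0689).

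**Figure D2:**
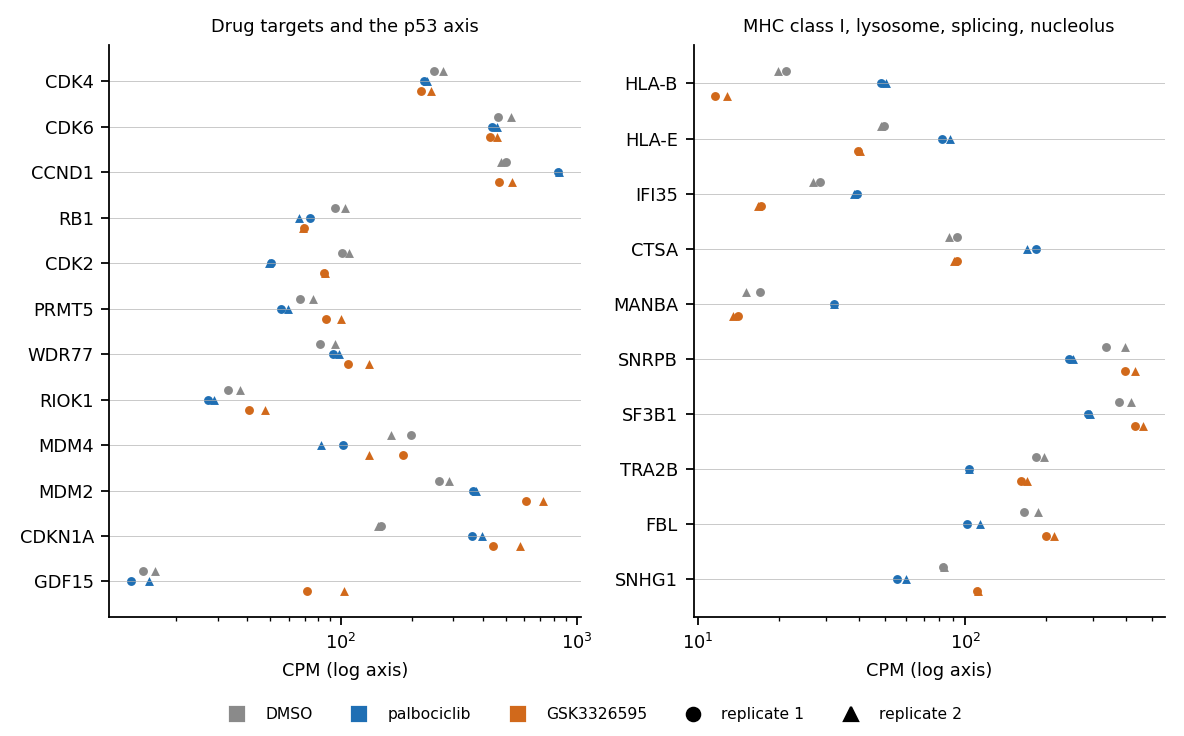
CPM on a log axis for 12 drug target and p53 genes (left) and 10 genes of MHC class I, the lysosome, splicing and the nucleolus (right), 1 point per library, coloured by treatment and shaped by replicate. CDK4, CDK6 and RB1 overlap between the inhibitors, GDF15 stands apart with GSK3326595, at 71.4 and 103 CPM against 12.8 and 15.3 CPM with palbociclib, and HLA-B stands apart with palbociclib.

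p53 targets were higher with GSK3326595 in 24 of 35 genes (68.6%, against 19.3% of all genes tested) and higher with palbociclib in 2, with a median of -0.48. Against the DMSO libraries that both contrasts share, the list's median was 0.67 with palbociclib and 1.04 with GSK3326595. GDF15 (chr19:18386158-18389176), a secreted stress cytokine, was at 12.8 and 15.3 CPM with palbociclib, 71.4 and 103 CPM with GSK3326595 and 14.4 and 16.2 CPM in DMSO (log2 fold change -2.64 ± 0.168, edgeR adjusted p = 3.91e-06). INPP5D, a lipid phosphatase of the PI3K pathway, was at 6.17 and 5.94 CPM with palbociclib, 35.1 and 28.7 CPM with GSK3326595 and 5.65 and 3.81 CPM in DMSO (log2 fold change -2.40 ± 0.175, edgeR adjusted p = 6.06e-06). Only the GSK3326595 libraries of these 2 genes stood off, since palbociclib and DMSO libraries overlapped or lay within a few CPM. DDB2, a nucleotide excision repair sensor, was at 63.7 and 65.2 CPM with palbociclib, 124 and 120.0 CPM with GSK3326595 and 56.1 and 48.02 CPM in DMSO (log2 fold change -0.92 ± 0.09, edgeR adjusted p = 2.98e-05). MDM2 (chr12:68808172-68850686), the ubiquitin ligase that degrades p53, was at 362 and 372 CPM with palbociclib, 612 and 717 CPM with GSK3326595 and 261 and 288 CPM in DMSO (log2 fold change -0.86 ± 0.102, edgeR adjusted p = 0.000102). DDB2 and MDM2 both had GSK3326595 libraries highest, then palbociclib, then DMSO, with no overlap. CDKN1A, which encodes the CDK inhibitor p21, was at 358 and 396 CPM with palbociclib, 442 and 575 CPM with GSK3326595 and 147 and 144 CPM in DMSO (log2 fold change -0.43 ± 0.117, edgeR adjusted p = 0.0137). Its libraries did not overlap, but the call was lost without palbociclib replicate 1 (adjusted p = 0.12) or GSK3326595 replicate 2 (0.133, log2 fold change -0.22).

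MDM4 (chr1:204516406-204558120), the p53 brake whose splicing is known to depend on PRMT5, was at 102 and 82.1 CPM with palbociclib, 184 and 131 CPM with GSK3326595 and 198 and 163 CPM in DMSO (log2 fold change -0.78 ± 0.154, edgeR adjusted p = 0.00228). The palbociclib libraries were lowest and the GSK3326595 libraries overlapped DMSO. Without GSK3326595 replicate 1 the log2 fold change was -0.51 (adjusted p = 0.00893). The 2 targets higher with palbociclib were TP53INP1 (log2 fold change 0.46 ± 0.119, edgeR adjusted p = 0.00997), a stress-induced autophagy gene, and SPATA7 (log2 fold change 0.90 ± 0.276, edgeR adjusted p = 0.024), a ciliary gene. TP53INP1 lost its call without palbociclib replicate 1 (0.103), and the count of 2 became 0 there and 1 without palbociclib replicate 2, without GSK3326595 replicate 2 or with DESeq2. PTCHD4, a p53-induced repressor of Hedgehog signalling, was at 15.6 and 15.4 CPM with palbociclib, 28.7 and 34.5 CPM with GSK3326595 and 7.66 and 7.195 CPM in DMSO (log2 fold change -1.03 ± 0.124, edgeR adjusted p = 0.000106). GSK3326595 libraries were highest and DMSO lowest.

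Its promoter window is printed because it was the called target with the smallest p that carried the p53 decamer, the unit of the p53 response element, here in a pair of matches that lie side by side and end just before the start. The window is chr6:48111198-48111297 on the minus strand (RefSeq, GRCh38.p14), with both decamers in capitals.
PTCHD4: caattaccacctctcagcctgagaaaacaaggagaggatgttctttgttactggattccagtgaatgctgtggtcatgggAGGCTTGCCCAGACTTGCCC
The p53 decamer, which reads the same on both strands, was in 3 of 21 called targets, in 1 of 7 others and in 4.61% of the genes kept with an entry.

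Of 18 BCL2 family and apoptosis genes 5 were higher with GSK3326595 (27.8%, against 19.3% of all genes tested), 3 were higher with palbociclib (16.7%, against 17.1%) and the median was -0.07. These shares were near those of all genes. BAX, a pore-forming death effector and p53 target, was at 71.3 and 76.4 CPM with palbociclib, 108 and 133 CPM with GSK3326595 and 57.3 and 59.5 CPM in DMSO (log2 fold change -0.71 ± 0.101, edgeR adjusted p = 0.000285). GSK3326595 libraries were highest for BAX with no overlap. The survival genes BCL2 (log2 fold change -0.89 ± 0.211, edgeR adjusted p = 0.00636) and BCL2L1 (log2 fold change -0.34 ± 0.0847, edgeR adjusted p = 0.00852) were also higher with GSK3326595. BCL2 was at 7.06 and 10.3 CPM with GSK3326595 and 4.09 and 5.22 CPM with palbociclib, both below the 14.04 and 13.1 CPM of DMSO. BAK1, a death effector like BAX, was higher with palbociclib (log2 fold change 0.51 ± 0.12, edgeR adjusted p = 0.00605). Without palbociclib replicate 1 BCL2 (adjusted p = 0.0615) and BCL2L1 (0.0834) lost their calls, as they did without GSK3326595 replicate 2 (0.0559, with a log2 fold change of -0.59, and 0.0731), and BAK1 did without palbociclib replicate 2 (0.0535). The count of 5 became 2 without palbociclib replicate 1 or GSK3326595 replicate 2 and 3 without palbociclib replicate 2, and the count of 3 became 1 without palbociclib replicate 1.

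Outside the division lists, 2720 genes were higher with palbociclib and 2931 higher with GSK3326595 (35.9% of 15749 genes together). The largest were sought among calls that averaged 5 CPM or more in the inhibitor libraries, whose libraries did not overlap, leaving out clones, small RNAs and pseudogenes. Of these the largest difference towards palbociclib was that of LGR6 (chr1:202193799-202319761), a receptor for R-spondins that amplify WNT signals, at 18.9 and 25.2 CPM with palbociclib, 2.57 and 2.44 CPM with GSK3326595 and 1.29 and 1.41 CPM in DMSO (log2 fold change 3.13 ± 0.202, edgeR adjusted p = 3.91e-06). NEBL, which encodes the actin-binding nebulette, was at 11.6 and 13.98 CPM with palbociclib, 2.51 and 2.38 CPM with GSK3326595 and 2.01 and 2.09 CPM in DMSO (log2 fold change 2.38 ± 0.202, edgeR adjusted p = 1.28e-05). MXRA8, a matrix adhesion receptor, was at 73.6 and 82.1 CPM with palbociclib, 17.6 and 13.1 CPM with GSK3326595 and 43.6 and 34.5 CPM in DMSO (log2 fold change 2.34 ± 0.15, edgeR adjusted p = 3.91e-06). Palbociclib libraries were highest in all 3, and MXRA8 also had its GSK3326595 libraries below DMSO, unlike LGR6 and NEBL. The actin-like gene ACTBL2 (2.38 ± 0.311), MGAM2 (2.25 ± 0.209), the axonemal dynein gene DNAH9 (2.16 ± 0.194), the lens filament gene BFSP1 (2.13 ± 0.291), the serine protease gene PRSS33 (2.13 ± 0.205) and TMEM63C (2.12 ± 0.3), of a family of osmosensitive channels, were also lower in DMSO than with palbociclib, where they were at or under 14.99 CPM. HLA-B, an MHC class I heavy chain gene, completes these 10 and is described with its list.

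Towards GSK3326595, within the same limits, the largest difference was that of STMN3 (chr20:63639712-63653424), a microtubule-destabilising stathmin, at 0.708 and 1.15 CPM with palbociclib, 12.02 and 12.1 CPM with GSK3326595 and 5.99 and 6.99 CPM in DMSO (log2 fold change -3.69 ± 0.243, edgeR adjusted p = 4.76e-06). Palbociclib libraries were below DMSO and GSK3326595 libraries above it. EFEMP1, which encodes the matrix protein fibulin-3, was at 5.91 and 7.66 CPM with palbociclib, 35.9 and 33.9 CPM with GSK3326595 and 11.4 and 14.9 CPM in DMSO (log2 fold change -2.36 ± 0.16, edgeR adjusted p = 4.87e-06). EGR1, an immediate early transcription factor, was at 3.44 and 4.12 CPM with palbociclib, 13.6 and 23.3 CPM with GSK3326595 and 4.87 and 4.95 CPM in DMSO (log2 fold change -2.28 ± 0.245, edgeR adjusted p = 5.14e-05). EFEMP1 repeated the STMN3 pattern, and for EGR1 the palbociclib libraries were just under DMSO. COL1A1 (chr17:50184101-50201631), a chain of type I collagen, was at 6.62 and 5.94 CPM with palbociclib, 28.5 and 26.2 CPM with GSK3326595 and 13.99 and 12.6 CPM in DMSO (log2 fold change -2.12 ± 0.136, edgeR adjusted p = 3.91e-06), and the antisense RNA gene MYHAS had -2.13 ± 0.169. MYHAS overlaps myosin genes on the other strand, so its reads cannot be assigned with certainty where the strand setting is not given. Of the other members of these 10, GDF15 and INPP5D are p53 targets. WDR76 (-2.12 ± 0.126) and the protease gene FAM111B (-1.84 ± 0.154) were lower than DMSO in the libraries of both inhibitors, as were the medians of the 4 division lists. WDR76 was at 5.86 and 6.75 CPM with palbociclib, 28.02 and 26.8 CPM with GSK3326595 and 44.8 and 50.3 CPM in DMSO. H3C14, a histone gene that is not on the histone list, varied widely within groups, at 2.07 and 3.16 CPM with palbociclib, 12.9 and 6.101 CPM with GSK3326595 and 8.503 and 30.7 CPM in DMSO (log2 fold change -1.85 ± 0.561, edgeR adjusted p = 0.0225). Its call was lost without palbociclib replicate 1 (adjusted p = 0.103), without GSK3326595 replicate 1 (0.127, log2 fold change -1.21) or with DESeq2 (0.0947).

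**Figure D3:**
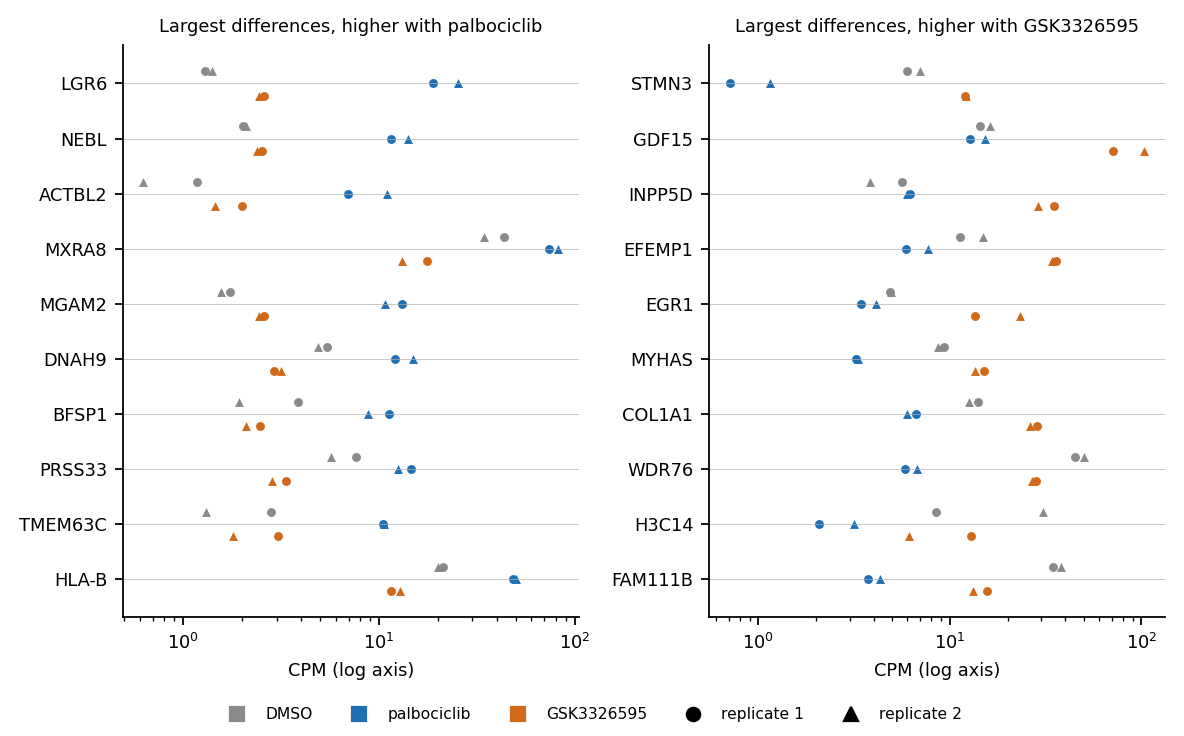
CPM on a log axis in each library for the 10 largest differences in each direction outside the division lists among genes averaging 5 CPM or more in the inhibitor libraries, coloured by treatment and shaped by replicate. By the rule that chose them the palbociclib and GSK3326595 libraries of a gene do not overlap; DMSO lies next to GSK3326595 for LGR6 and NEBL, next to palbociclib for GDF15 and INPP5D, and between the inhibitors for STMN3, COL1A1 and HLA-B.

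To set apart what 1 inhibitor moved strongly and the other little, genes called between the inhibitors and outside the division lists were sorted by their differences from DMSO. One inhibitor had to differ from DMSO by at least 2-fold with an adjusted p under 0.05 and no overlap, and the other by less than 0.3 on the log2 scale. Over all genes tested, 40.7% were called between palbociclib and DMSO and 19.4% between GSK3326595 and DMSO. This gave 374 genes, of which 212 were up and 102 down with palbociclib, and 37 were up and 23 down with GSK3326595. Both contrasts share the DMSO libraries, so these counts are a description, and a small difference from DMSO does not show that a gene did not respond. Of these genes 34, 20, 9 and 8, in the same order, entered through the count minimum in 1 inhibitor group only.

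The class up with palbociclib had a median log2 difference from DMSO of 1.33 with palbociclib and 0.07 with GSK3326595, and 190 of its 212 genes code for protein. CLU, the extracellular chaperone clusterin, was at 28.2 and 27.5 CPM with palbociclib, 7.24 and 7.79 CPM with GSK3326595 and 8.78 and 7.77 CPM in DMSO (log2 fold change 1.89 ± 0.132, edgeR adjusted p = 4.87e-06). RTL1 (chr14:100879753-100903722), an imprinted gene derived from a retrotransposon, was at 14.8 and 16.9 CPM with palbociclib, 4.203 and 4.3 CPM with GSK3326595 and 3.86 and 5.53 CPM in DMSO (log2 fold change 1.90 ± 0.193, edgeR adjusted p = 3.93e-05). For both genes the GSK3326595 libraries lay within a few CPM of DMSO. Within the same limits of level and symbol, NEBL and TMEM63C were the largest of this class. Some members at lower levels had larger differences, here and in the other classes. Among its members 15 were on any list, 5 of them lysosomal (ASAH1, CTSD, CTSF, GRN and MANBA) and 3 of the matrix (COL7A1, ITGA1 and THBS2). Those down with palbociclib had medians of -1.22 and -0.08. OGFRL1 was at 25.9 and 23.7 CPM with palbociclib, 92.1 and 67.7 CPM with GSK3326595 and 77.03 and 74.1 CPM in DMSO (log2 fold change -1.69 ± 0.133, edgeR adjusted p = 9.02e-06). VOPP1, a vesicle protein gene, was at 17.5 and 14.4 CPM with palbociclib, 46.1 and 46.02 CPM with GSK3326595 and 45.3 and 47.7 CPM in DMSO (log2 fold change -1.53 ± 0.115, edgeR adjusted p = 6.83e-06). BTG3, of a family of antiproliferative genes, was at 7.78 and 7.57 CPM with palbociclib, 21.7 and 21.2 CPM with GSK3326595 and 18.7 and 21.3 CPM in DMSO (log2 fold change -1.48 ± 0.129, edgeR adjusted p = 1.48e-05), and the scavenger receptor gene SCARA3 had -1.52 ± 0.19. Palbociclib libraries were below the other 4 in each of these genes. Of the 102 genes 3 were on any list, namely ASNS, CDK2 and PTBP2. CDK2 was also called lower with GSK3326595 than in DMSO (log2 difference -0.3, edgeR adjusted p = 0.0232). Its change was therefore shared and unequal, since the class limits only the size of the smaller difference.

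Genes up with GSK3326595 had a median of 1.35 with GSK3326595 and 0.09 with palbociclib, and 27 of the 37 code for protein. Within these limits the largest after GDF15 was UNC13A, a synaptic vesicle priming factor, at 8.14 and 8.09 CPM with palbociclib, 28.9 and 28.5 CPM with GSK3326595 and 9.399 and 7.82 CPM in DMSO (log2 fold change -1.82 ± 0.133, edgeR adjusted p = 6.06e-06). LPAR1, a receptor for lysophosphatidic acid, was at 5.51 and 4.41 CPM with palbociclib, 13.6 and 14 CPM with GSK3326595 and 5.65 and 5.63 CPM in DMSO (log2 fold change -1.48 ± 0.17, edgeR adjusted p = 8.37e-05). NNMT, which methylates nicotinamide with S-adenosylmethionine, was at 20.9 and 20.2 CPM with palbociclib, 45.1 and 52.2 CPM with GSK3326595 and 20.9 and 23.4 CPM in DMSO (log2 fold change -1.25 ± 0.113, edgeR adjusted p = 1.9e-05). The other 4 libraries of these genes overlapped or lay close together. GDF15, ATF3 and POSTN were the members found on any list. Genes down with GSK3326595 had medians of -1.28 and -0.02, and none of the 23 was on a list. HPS1, needed for the biogenesis of lysosome-related organelles such as melanosomes, was at 37.5 and 38.3 CPM with palbociclib, 15.9 and 13.7 CPM with GSK3326595 and 33.2 and 31.6 CPM in DMSO (log2 fold change 1.36 ± 0.112, edgeR adjusted p = 1.09e-05). EEF2K, the kinase that slows translation elongation, was at 109.9 and 103 CPM with palbociclib, 63.4 and 46.4 CPM with GSK3326595 and 118 and 119 CPM in DMSO (log2 fold change 0.95 ± 0.12, edgeR adjusted p = 0.000138). CEP128, of the subdistal appendages of the centriole, was at 11.8 and 11.8 CPM with palbociclib, 5.896 and 6.28 CPM with GSK3326595 and 14.2 and 14.6 CPM in DMSO (log2 fold change 0.95 ± 0.148, edgeR adjusted p = 0.000505). GSK3326595 libraries were lowest in all 3, and the long noncoding RNA CCDST (1.15 ± 0.179) completes the 4 largest of this class within the limits.

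**Figure D4:**
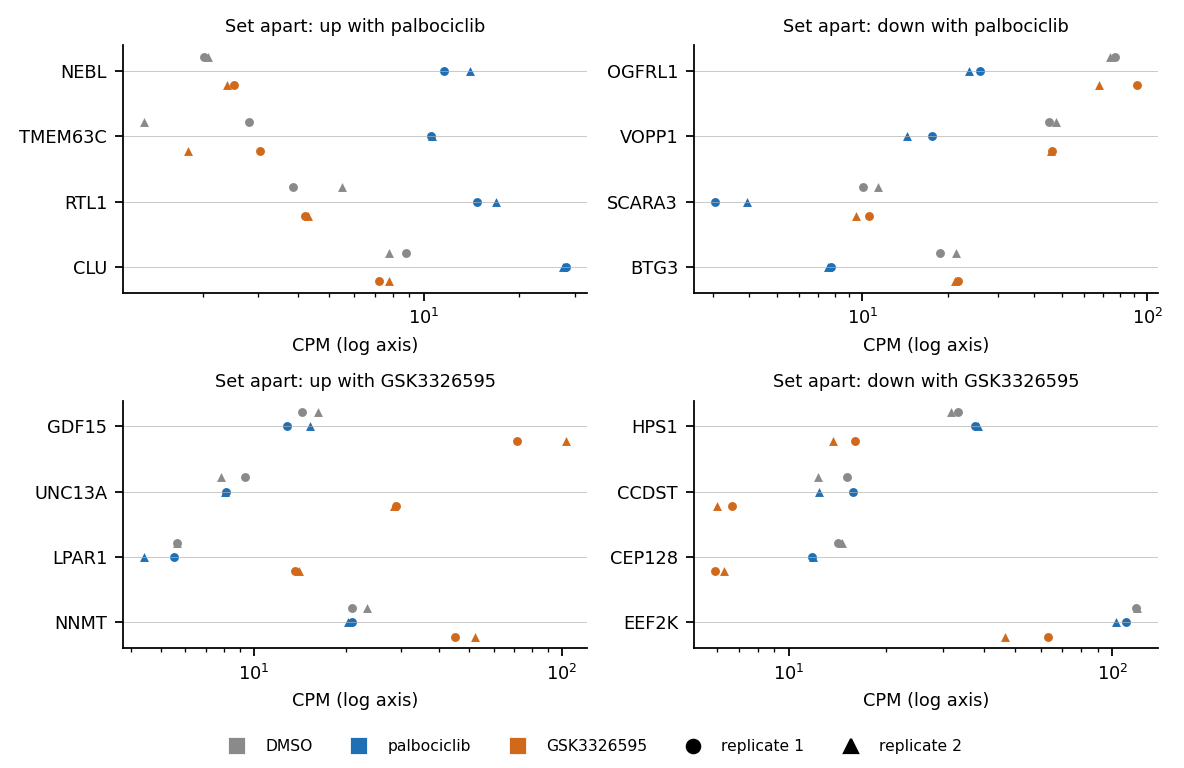
CPM on a log axis in each library for the 4 largest genes averaging 5 CPM or more in each class set apart by 1 inhibitor, coloured by treatment and shaped by replicate. In each panel the inhibitor that defines the class stands off from DMSO while the libraries of the other inhibitor lie near DMSO, as the choice of the genes requires.

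RNA-processing genes, where called, were nearly all higher with GSK3326595. Of 24 Sm protein and core spliceosome genes, 16 were higher with GSK3326595 (66.7%, against 19.3% of all genes tested) and none was higher with palbociclib by edgeR. Their median was -0.49. SNRPB, which encodes the Sm proteins B and B′, was at 244 and 253 CPM with palbociclib, 396 and 433 CPM with GSK3326595 and 335 and 395 CPM in DMSO (log2 fold change -0.74 ± 0.1, edgeR adjusted p = 0.000217). SF3B1, of the U2 particle, was at 287 and 294 CPM with palbociclib, 434 and 464 CPM with GSK3326595 and 377 and 419 CPM in DMSO (log2 fold change -0.63 ± 0.0919, edgeR adjusted p = 0.000349). PRPF8, the scaffold of the catalytic core, was at 803 and 823 CPM with palbociclib, 1277 and 1327 CPM with GSK3326595 and 954 and 992 CPM in DMSO (log2 fold change -0.68 ± 0.1, edgeR adjusted p = 0.000367). Palbociclib libraries were lowest in the 3 genes, and the GSK3326595 libraries were highest, with DMSO between. Against the shared DMSO libraries the list's medians were -0.30 with palbociclib and 0.17 with GSK3326595. The 16 became 9 without palbociclib replicate 1 or GSK3326595 replicate 2.

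Among 28 SR, hnRNP and splicing kinase genes, 19 were higher with GSK3326595 (67.9%, against 19.3% of all genes tested) and 1 was higher with palbociclib (3.57%, against 17.1%). This list's median was -0.50. PTBP2, the neural relative of the splicing repressor PTBP1, was at 10.9 and 11.1 CPM with palbociclib, 28.7 and 29.3 CPM with GSK3326595 and 25.1 and 24.8 CPM in DMSO (log2 fold change -1.40 ± 0.109, edgeR adjusted p = 8.87e-06). SRSF4, an SR protein, was at 41.6 and 44.8 CPM with palbociclib, 72.6 and 75.01 CPM with GSK3326595 and 70.3 and 76.5 CPM in DMSO (log2 fold change -0.77 ± 0.0893, edgeR adjusted p = 8.52e-05). TRA2B, a splicing activator, was at 103 and 104 CPM with palbociclib, 161 and 169.8 CPM with GSK3326595 and 184 and 198 CPM in DMSO (log2 fold change -0.68 ± 0.0812, edgeR adjusted p = 1e-04). The palbociclib libraries of each were below the other 4, and the list's medians against DMSO were -0.58 with palbociclib and -0.08 with GSK3326595. CLK3, a kinase of SR proteins, was the 1 gene higher with palbociclib (log2 fold change 0.34 ± 0.0961, edgeR adjusted p = 0.0172), a call lost without palbociclib replicate 1 (adjusted p = 0.156), palbociclib replicate 2 (0.0531) or GSK3326595 replicate 1 (0.0635).

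Ribosome biogenesis genes were higher with GSK3326595 in 18 of 33 cases (54.5%, against 19.3% of all genes tested) and none was higher with palbociclib by edgeR, with a median of -0.32. FBL, the fibrillarin that methylates ribosomal RNA, was at 102 and 113 CPM with palbociclib, 201 and 216 CPM with GSK3326595 and 166 and 188 CPM in DMSO (log2 fold change -0.95 ± 0.0935, edgeR adjusted p = 3.05e-05). UTP20, of the small subunit processome, was at 97.3 and 93.8 CPM with palbociclib, 161 and 175 CPM with GSK3326595 and 172 and 178 CPM in DMSO (log2 fold change -0.82 ± 0.0816, edgeR adjusted p = 3.53e-05), and BYSL had -0.63 ± 0.0976. For FBL and UTP20 the palbociclib libraries lay below the other 4. The count of 18 became 9 without palbociclib replicate 1 and 11 without GSK3326595 replicate 2. Host genes of small nucleolar RNAs were higher with GSK3326595 in 6 of 16 cases (37.5%, against 19.3%, with a median of -0.25), a count that became 3 without palbociclib replicate 2. Of these SNHG1 was at 55.4 and 59.9 CPM with palbociclib, 110.3 and 112 CPM with GSK3326595 and 82.3 and 82.96 CPM in DMSO (log2 fold change -0.94 ± 0.0808, edgeR adjusted p = 1.35e-05), with GSK3326595 highest and palbociclib lowest, SNHG3 had -1.30 ± 0.157 and ZFAS1 had -0.42 ± 0.0857.

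Ribosomal proteins differed little: 3 of 44 genes were higher with GSK3326595 (6.82%, against 19.3% of all genes tested), none was higher with palbociclib by edgeR, and the median was -0.08. The 3 were RPL5 (log2 fold change -0.40 ± 0.097, edgeR adjusted p = 0.00731), RPS7 (log2 fold change -0.35 ± 0.0965, edgeR adjusted p = 0.014) and RPS19 (log2 fold change -0.34 ± 0.1, edgeR adjusted p = 0.0186), all components of the cytosolic ribosome. Each lost its call without palbociclib replicate 1 (adjusted p = 0.0637, 0.0735 and 0.14) or palbociclib replicate 2 (0.0607, 0.133 and 0.123), and RPS7 (0.0618) and RPS19 (0.0815) lost it without GSK3326595 replicate 2. The count of 3 was 6 without GSK3326595 replicate 1 or with library totals as the scaling, and 5 with DESeq2. Without GSK3326595 replicate 2 the list had 1 gene higher with GSK3326595 and 4 higher with palbociclib.

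Of the 31 lists, the lysosome had the largest share of genes higher with palbociclib: 22 of 32 were higher with palbociclib (68.8%, against 17.1% of all genes tested), 2 were higher with GSK3326595, and the median was 0.36. Against the shared DMSO libraries the medians were 0.52 with palbociclib and 0.06 with GSK3326595. CTSA (chr20:45891335-45898820), which encodes a carboxypeptidase that also protects other lysosomal enzymes, was at 184 and 170.4 CPM with palbociclib, 93.1 and 90.4 CPM with GSK3326595 and 93.3 and 86.9 CPM in DMSO (log2 fold change 0.95 ± 0.0821, edgeR adjusted p = 1.43e-05). MANBA, a mannosidase, was at 32.4 and 32.3 CPM with palbociclib, 14.1 and 13.5 CPM with GSK3326595 and 17.1 and 15.1 CPM in DMSO (log2 fold change 1.23 ± 0.114, edgeR adjusted p = 2.21e-05). GSK3326595 libraries lay within or just under the DMSO range in both genes, and palbociclib libraries stood above. GUSB, the glucuronidase, had the opposite sign, at 30.5 and 31.1 CPM with palbociclib and 47.98 and 41.4 CPM with GSK3326595 (log2 fold change -0.54 ± 0.103, edgeR adjusted p = 0.00198). The other member higher with GSK3326595, TMEM192 (-0.31), lost its call in several settings, so that 1 gene was left in that direction with DESeq2, with no filter, or without any 1 of the libraries other than GSK3326595 replicate 1.

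The CTSA promoter is shown because CTSA was the called lysosomal gene with the smallest p that held CACGTG. These letters are the core of the element bound by TFEB and related factors, and occurred in this promoter as a pair. The window is chr20:45891235-45891334 on the plus strand (RefSeq, GRCh38.p14), and the capitals mark CACGTG, which reads the same on both strands.
CTSA: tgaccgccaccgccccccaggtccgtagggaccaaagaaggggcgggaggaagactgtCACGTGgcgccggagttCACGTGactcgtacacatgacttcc
The letters CACGTG occurred within 250 bases before the start in 8 of 13 lysosomal genes called higher with palbociclib that had an entry, in 0 of the 9 other members and in 8.37% of all genes kept. Autophagy genes, which share this regulator, were higher with palbociclib in 7 of 20 cases (35%, against 17.1% of all genes tested, with a median of 0.17), and none was higher with GSK3326595 by edgeR. ATG2A, a lipid transfer protein of the forming autophagosome, was at 128 and 116 CPM with palbociclib, 76.5 and 74.02 CPM with GSK3326595 and 72.95 and 67.8 CPM in DMSO (log2 fold change 0.69 ± 0.0854, edgeR adjusted p = 0.000116). GABARAPL1, of the ATG8 family, was at 41.1 and 43.5 CPM with palbociclib, 23.5 and 24.8 CPM with GSK3326595 and 20.9 and 19.5 CPM in DMSO (log2 fold change 0.81 ± 0.102, edgeR adjusted p = 0.000137). WIPI1, which binds phosphoinositide on that membrane, was at 28.3 and 24.5 CPM with palbociclib, 13.4 and 11.6 CPM with GSK3326595 and 15.4 and 12.7 CPM in DMSO (log2 fold change 1.08 ± 0.141, edgeR adjusted p = 0.000166). Palbociclib libraries were above the other 4 in each. TFEB itself was not called (log2 fold change -0.14 ± 0.231, edgeR adjusted p = 0.671).

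Of 31 sterol and fatty acid synthesis genes 18 were higher with GSK3326595 (58.1%, against 19.3% of all genes tested) and 1 was higher with palbociclib (3.23%, against 17.1%). They had a median of -0.41. INSIG1, which holds the sterol sensor SCAP in the endoplasmic reticulum, was at 29.7 and 21.8 CPM with palbociclib, 46.8 and 53.5 CPM with GSK3326595 and 79.6 and 82.3 CPM in DMSO (log2 fold change -0.96 ± 0.133, edgeR adjusted p = 0.000239). SREBF2, the transcription factor of sterol synthesis, was at 150.1 and 125 CPM with palbociclib, 217 and 226 CPM with GSK3326595 and 207 and 189 CPM in DMSO (log2 fold change -0.69 ± 0.0994, edgeR adjusted p = 0.000316). HMGCS1, which makes the precursor of mevalonate, was at 32.96 and 28.3 CPM with palbociclib, 48.4 and 49.4 CPM with GSK3326595 and 51.3 and 51.7 CPM in DMSO (log2 fold change -0.68 ± 0.102, edgeR adjusted p = 0.000422). Palbociclib libraries were lowest in all 3, and for INSIG1 both inhibitors lay below DMSO. MVD, a later enzyme of the mevalonate pathway, was higher with palbociclib (log2 fold change 0.68 ± 0.133, edgeR adjusted p = 0.00208), with GSK3326595 libraries at 11.6 and 10.98 CPM below 17.6 and 16.2 CPM in DMSO. The 18 became 7 without palbociclib replicate 2, where the genes higher with GSK3326595 over all tested fell from 3071 to 1783, and the 1 became 2 without GSK3326595 replicate 1.

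The promoter of SREBF2 is given because it was the called gene with the smallest p to hold TCACCCCA, a sterol response element, searched on both strands and marked in capitals. The window is chr22:41832927-41833026 on the plus strand (RefSeq, GRCh38.p14).
SREBF2: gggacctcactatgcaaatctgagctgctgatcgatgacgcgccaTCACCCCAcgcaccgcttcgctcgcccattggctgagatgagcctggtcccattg
These letters were found in 2 of 14 called members, 0 of 11 others and 1.04% of all genes kept, so most genes of the list did not hold them in this window.

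MHC class I genes were higher with palbociclib in 9 of 20 cases (45%, against 17.1% of all genes tested), none was higher with GSK3326595 by edgeR, and the median was 0.29. HLA-B (chr6:31353875-31357179), a classical heavy chain gene, was at 48.3 and 50.3 CPM with palbociclib, 11.6 and 12.8 CPM with GSK3326595 and 21.3 and 19.97 CPM in DMSO (log2 fold change 2.02 ± 0.11, edgeR adjusted p = 3.45e-06). HLA-E, which presents leader peptides to natural killer cells, was at 82.1 and 88.1 CPM with palbociclib, 39.6 and 40.5 CPM with GSK3326595 and 49.5 and 48.3 CPM in DMSO (log2 fold change 1.09 ± 0.0876, edgeR adjusted p = 1.02e-05). In both genes the palbociclib libraries were above DMSO and the GSK3326595 libraries below it, without overlap. Further calls included HLA-F, HLA-C, TAPBP, PSMB8, PSMB10 and B2M, the light chain, with log2 fold changes from 0.40 for B2M to 1.42 for HLA-F, while the peptide transporter genes TAP1 (0.23 ± 0.104) and TAP2 (0.00 ± 0.0936) and the class I activator NLRC5 (0.15 ± 0.129) were not called. HLA genes resemble each other, so the division of reads among them is uncertain, and without GSK3326595 replicate 2 there was 1 gene higher with GSK3326595.

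Interferon-stimulated genes were higher with palbociclib in 14 of 37 cases (37.8%, against 17.1% of all genes tested) and higher with GSK3326595 in 2 (5.41%, against 19.3%). Over the list the median was 0.22, and 1 of the 37 passed the count filter through palbociclib only, which tilts it towards palbociclib. IFI35 was at 39.3 and 38.2 CPM with palbociclib, 17.2 and 16.8 CPM with GSK3326595 and 28.6 and 26.9 CPM in DMSO (log2 fold change 1.19 ± 0.103, edgeR adjusted p = 1.42e-05). ISG20, an RNA exonuclease, was at 57.9 and 55.9 CPM with palbociclib, 26.97 and 28.6 CPM with GSK3326595 and 40.7 and 42.8 CPM in DMSO (log2 fold change 1.03 ± 0.0956, edgeR adjusted p = 2.21e-05). STAT2, a subunit of the transcription factor complex that interferon activates, was at 103 and 93.1 CPM with palbociclib, 55.9 and 45.4 CPM with GSK3326595 and 66.8 and 54.3 CPM in DMSO (log2 fold change 0.95 ± 0.121, edgeR adjusted p = 0.000143). The IFI35 and ISG20 libraries were ordered palbociclib, DMSO, GSK3326595 from high to low, and for STAT2 the DMSO and GSK3326595 libraries overlapped. HERC5, the ligase for ISG15, was low and on the other side, at 2.07 and 1.68 CPM with palbociclib and 4.79 and 4.71 CPM with GSK3326595 (log2 fold change -1.34 ± 0.242, edgeR adjusted p = 0.00132), as was DDX60 (-0.54 ± 0.163). The 14 became 9 without either palbociclib library, and the 2 became 1 without palbociclib replicate 2.

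Of 36 matrix and adhesion genes 14 were higher with palbociclib (38.9%, against 17.1% of all genes tested), 8 were higher with GSK3326595 (22.2%, near the 19.3% of all genes). The median of these genes was 0.15. COL6A3 (chr2:237324018-237414164), a chain of the microfibril-forming type VI collagen, was at 79.8 and 80.3 CPM with palbociclib, 20.4 and 19.2 CPM with GSK3326595 and 42.9 and 44.5 CPM in DMSO (log2 fold change 2.02 ± 0.0953, edgeR adjusted p = 1.44e-06). ITGA3, a laminin receptor subunit, was at 1050 and 949 CPM with palbociclib, 434 and 438 CPM with GSK3326595 and 895 and 822 CPM in DMSO (log2 fold change 1.20 ± 0.102, edgeR adjusted p = 1.35e-05). ITGA1, a collagen receptor subunit, was at 93.8 and 106 CPM with palbociclib, 53.9 and 47.6 CPM with GSK3326595 and 47.1 and 50.8 CPM in DMSO (log2 fold change 0.98 ± 0.0988, edgeR adjusted p = 3.75e-05). Palbociclib libraries were highest in each, but for COL6A3 and ITGA3 GSK3326595 was below DMSO, and for ITGA1 its libraries overlapped DMSO. The strongest on the other side were COL1A1, described above, and POSTN (log2 fold change -1.14 ± 0.192, edgeR adjusted p = 0.000861), which encodes the matrix protein periostin. The 8 higher with GSK3326595 became 3 without palbociclib replicate 1, palbociclib replicate 2 or GSK3326595 replicate 2.

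The senescence-associated secretome had 15 of 36 genes higher with palbociclib (41.7%, against 17.1% of all genes tested), 7 higher with GSK3326595 (19.4%, at the 19.3% of all genes) and a median of 0.23. Of the 36, 2 passed the count filter through palbociclib only, which tilts them towards palbociclib. Against the shared DMSO libraries the list's medians were close, at 0.37 with palbociclib and 0.31 with GSK3326595. IGFBP3, which binds insulin-like growth factors, was at 73.3 and 78.7 CPM with palbociclib, 26.4 and 30.2 CPM with GSK3326595 and 34.1 and 41.3 CPM in DMSO (log2 fold change 1.42 ± 0.116, edgeR adjusted p = 1.04e-05). PTGS2, which encodes cyclooxygenase-2, was at 4.701 and 9.24 CPM with palbociclib, 0.759 and 0.872 CPM with GSK3326595 and 0.559 and 0.73 CPM in DMSO (log2 fold change 3.09 ± 0.38, edgeR adjusted p = 0.000116). PLAT, the tissue plasminogen activator, was at 173 and 173 CPM with palbociclib, 73.4 and 101 CPM with GSK3326595 and 61.7 and 58.97 CPM in DMSO (log2 fold change 0.98 ± 0.121, edgeR adjusted p = 0.000119). For each the palbociclib libraries lay above the other 4, with PTGS2 under 1 CPM in all of those. IL11, a cytokine of the IL-6 family, was at 19.8 and 23.6 CPM with palbociclib, 54.5 and 71.1 CPM with GSK3326595 and 35.8 and 50.7 CPM in DMSO (log2 fold change -1.54 ± 0.172, edgeR adjusted p = 6.91e-05), with palbociclib libraries lowest and GSK3326595 highest. IL6 itself had the same sign (-1.77 ± 0.365) at or under 2.16 CPM. Metalloproteinase genes MMP1, MMP2, MMP3 and MMP14 were among those higher with palbociclib, and the plasminogen system genes PLAU and PLAUR among those higher with GSK3326595. The 7 became 4 without palbociclib replicate 1.

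Lineage genes were seen in part. Of 20 melanocyte differentiation genes, 7 were higher with palbociclib (35%, against 17.1% of all genes tested) and 1 was higher with GSK3326595 (5%, against 19.3%), with a median of 0.36. Of the 20, 2 passed the count filter through palbociclib only and 1 through GSK3326595 only, and the filter tilts such genes towards that group. GPNMB, a glycoprotein of melanosomes, was at 186 and 161 CPM with palbociclib, 85.3 and 89.8 CPM with GSK3326595 and 62.5 and 52.5 CPM in DMSO (log2 fold change 0.99 ± 0.102, edgeR adjusted p = 4.14e-05). S100B, a calcium-binding protein used as a melanoma marker, was at 10.6 and 10.9 CPM with palbociclib, 3.44 and 3.95 CPM with GSK3326595 and 3.69 and 3.13 CPM in DMSO (log2 fold change 1.53 ± 0.189, edgeR adjusted p = 0.000118). EDNRB, the endothelin receptor, was at 7.18 and 8.19 CPM with palbociclib, 3.97 and 3.78 CPM with GSK3326595 and 5.48 and 5.37 CPM in DMSO (log2 fold change 0.99 ± 0.191, edgeR adjusted p = 0.00199). Palbociclib libraries were highest in these genes, and for S100B the GSK3326595 libraries overlapped DMSO. MITF, the lineage's transcription factor, was the 1 member higher with GSK3326595, at 57.2 and 59.7 CPM with palbociclib, 78.8 and 87.2 CPM with GSK3326595 and 57.6 and 61.1 CPM in DMSO (log2 fold change -0.51 ± 0.088, edgeR adjusted p = 0.00106), with palbociclib libraries at the DMSO level. The pigment genes PMEL (0.55 ± 0.32) and MLANA (0.09 ± 0.382), at or under 2.44 CPM in every library, were not called.

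Genes of the dedifferentiated melanoma state were higher with GSK3326595 in 9 of 25 cases (36%, against 19.3% of all genes tested) and higher with palbociclib in 1 (4%, against 17.1%), with a median of -0.18. AJUBA, a LIM protein of the Hippo pathway, was at 79.8 and 76.1 CPM with palbociclib, 133 and 119 CPM with GSK3326595 and 132 and 116 CPM in DMSO (log2 fold change -0.69 ± 0.0931, edgeR adjusted p = 0.000203). TEAD4, the DNA-binding partner of YAP, was at 25.1 and 28.3 CPM with palbociclib, 47.3 and 48.9 CPM with GSK3326595 and 42.5 and 51.2 CPM in DMSO (log2 fold change -0.85 ± 0.114, edgeR adjusted p = 0.000203). AXL, a receptor kinase tied to drug tolerance, was at 478 and 459 CPM with palbociclib, 709.9 and 749.9 CPM with GSK3326595 and 838 and 868 CPM in DMSO (log2 fold change -0.64 ± 0.0944, edgeR adjusted p = 0.000371). In these the palbociclib libraries were below the other 4, and for AJUBA and TEAD4 the GSK3326595 libraries overlapped DMSO. The exception was TGFBI, a matrix protein induced by TGF-beta, at 857 and 897 CPM with palbociclib, 463 and 382 CPM with GSK3326595 and 261 and 233 CPM in DMSO (log2 fold change 1.05 ± 0.111, edgeR adjusted p = 4.79e-05), where palbociclib was highest and DMSO lowest.

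ERK output genes, which report signalling below BRAF, were higher with palbociclib in 10 of 24 cases (41.7%, against 17.1% of all genes tested) and higher with GSK3326595 in 4 (16.7%, near the 19.3% of all genes). The list had a median of 0.18. Against the shared DMSO libraries its medians were -0.08 with palbociclib and -0.17 with GSK3326595, so the list as a whole was not above DMSO. SPRED3, an inhibitor of RAS signalling, was at 40.4 and 47.7 CPM with palbociclib, 23.2 and 24.1 CPM with GSK3326595 and 24.6 and 21.4 CPM in DMSO (log2 fold change 0.90 ± 0.117, edgeR adjusted p = 0.00017). DUSP6, the phosphatase of ERK, was at 253 and 278 CPM with palbociclib, 169 and 182 CPM with GSK3326595 and 187 and 184 CPM in DMSO (log2 fold change 0.60 ± 0.0857, edgeR adjusted p = 0.000308). CCND1, given above, is on this list too. Palbociclib libraries were above the other 4 in these genes. EGR1, also above, was the largest of the 4 with the other sign, and the immediate early gene EGR3 went towards palbociclib (1.35 ± 0.308). The 10 became 5 without palbociclib replicate 2, where the genes higher with palbociclib over all tested fell from 2722 to 1735.

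TGF-beta and BMP genes had 6 of 25 higher in each direction (24%, near the 17.1% and 19.3% of all genes tested) and a median of 0.12. With the replicate number as a block in the fit, the 6 higher with palbociclib became 11. PMEPA1, a feedback inhibitor of TGF-beta signalling, was at 78.5 and 83.7 CPM with palbociclib, 45.5 and 45.6 CPM with GSK3326595 and 18.7 and 21.5 CPM in DMSO (log2 fold change 0.83 ± 0.0969, edgeR adjusted p = 8.88e-05). BMP2, a ligand, was at 36.3 and 30.5 CPM with palbociclib, 14.5 and 17.4 CPM with GSK3326595 and 25.4 and 30.8 CPM in DMSO (log2 fold change 1.06 ± 0.14, edgeR adjusted p = 0.000172), and LTBP1, which stores latent TGF-beta in the matrix, had 1.06 ± 0.154. PMEPA1 was lowest in DMSO, whereas BMP2 was lowest with GSK3326595. LTBP2, a relative of LTBP1, was at 31.4 and 27.8 CPM with palbociclib and 65.1 and 52.6 CPM with GSK3326595 (log2 fold change -0.99 ± 0.12, edgeR adjusted p = 0.000108). The 6 higher with GSK3326595 became 2 without palbociclib replicate 1 or GSK3326595 replicate 2. In the WNT and NOTCH list 6 of 20 genes were higher with palbociclib (30%, against 17.1% of all genes tested) and 3 higher with GSK3326595 (15%, against 19.3%). Its members had a median of 0.29, and 2 of the 20 passed the count filter through palbociclib only, which tilts them towards palbociclib. LGR6 led the list, followed by the WNT receptor FZD8 (0.80 ± 0.138) and the secreted DKK3 (0.77 ± 0.144), and NOTCH1 (log2 fold change -0.34 ± 0.0783, edgeR adjusted p = 0.00577) was on the other side. NOTCH1 lost its call without palbociclib replicate 1 (adjusted p = 0.0767), and the 3 became 0 there and 1 without palbociclib replicate 2.

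Amino acid and stress genes under ATF4 and the unfolded protein response were higher with GSK3326595 in 8 of 30 cases (26.7%, near the 19.3% of all genes tested) and higher with palbociclib in 3 (10%, against 17.1%). Its median was -0.20. PHGDH, the entry to serine synthesis, was at 83.7 and 84.2 CPM with palbociclib, 149 and 154 CPM with GSK3326595 and 194 and 204 CPM in DMSO (log2 fold change -0.85 ± 0.0787, edgeR adjusted p = 2.19e-05). ASNS, asparagine synthetase, was at 24.6 and 28.1 CPM with palbociclib, 51.5 and 56.1 CPM with GSK3326595 and 54.8 and 66.1 CPM in DMSO (log2 fold change -1.03 ± 0.117, edgeR adjusted p = 7.81e-05), and CEBPG, a partner of ATF4, had -0.87 ± 0.11. Palbociclib libraries were below the other 4 in both PHGDH and ASNS. SLC7A11, the cystine importer, was at 77.7 and 91.3 CPM with palbociclib, 44.4 and 49.2 CPM with GSK3326595 and 79.8 and 85.3 CPM in DMSO (log2 fold change 0.85 ± 0.101, edgeR adjusted p = 9.52e-05), with GSK3326595 libraries below the other 4. The 8 became 13 without GSK3326595 replicate 1.

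Energy metabolism differed in few members in the fit without a replicate block. Of 33 nuclear-encoded oxidative phosphorylation genes 6 were higher with GSK3326595 (18.2%) and 2 higher with palbociclib (6.06%), with a median of 0.01. Of 24 glycolysis genes 5 were higher with GSK3326595 (20.8%) and 2 higher with palbociclib (8.33%), with a median of -0.08. The GSK3326595 shares were near the 19.3% of all genes tested, and the palbociclib shares were below the 17.1% of all genes tested. NDUFA9, of complex I, was at 57.8 and 60.4 CPM with palbociclib, 76.1 and 89.1 CPM with GSK3326595 and 63.9 and 73.7 CPM in DMSO (log2 fold change -0.48 ± 0.102, edgeR adjusted p = 0.00336). COX7A2, of cytochrome oxidase, was at 75.1 and 88.1 CPM with palbociclib, 50.8 and 57.9 CPM with GSK3326595 and 56.1 and 65.7 CPM in DMSO (log2 fold change 0.59 ± 0.112, edgeR adjusted p = 0.00182). HK2, hexokinase, was at 209 and 204 CPM with palbociclib, 306 and 305 CPM with GSK3326595 and 204 and 223 CPM in DMSO (log2 fold change -0.56 ± 0.0835, edgeR adjusted p = 0.000379). For NDUFA9 the GSK3326595 libraries were highest, for COX7A2 the palbociclib libraries were, and for HK2 the palbociclib libraries overlapped DMSO. PFKFB4, which makes an activator of glycolysis, was at 123 and 139.7 CPM with palbociclib, 79.3 and 71.1 CPM with GSK3326595 and 76.2 and 75.1 CPM in DMSO (log2 fold change 0.80 ± 0.0914, edgeR adjusted p = 7.69e-05), with palbociclib libraries above the other 4, and the lactate exporter SLC16A3 (-0.51 ± 0.109) and enolase ENO1 (-0.56 ± 0.133) had the other sign.

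With the replicate number as a block in the fit, the 6 and 2 oxidative phosphorylation calls became 10 and 6. The 5 glycolysis calls higher with GSK3326595 became 9. Several of the calls made without the block were lost when 1 library was left out, which also lowered the calls over all genes. NDUFC2 (log2 fold change -0.40 ± 0.121, edgeR adjusted p = 0.0235), of complex I, lost its call without palbociclib replicate 1 (adjusted p = 0.0981), palbociclib replicate 2 (0.109) or GSK3326595 replicate 2 (0.156) and with DESeq2 (0.0758), and ENO1, at 0.00669 with all libraries, lost it without palbociclib replicate 1 (0.108). The 6 oxidative phosphorylation calls became 1 without palbociclib replicate 1 or GSK3326595 replicate 2, 2 without palbociclib replicate 2 or with DESeq2, 3 without either DMSO library and 10 without GSK3326595 replicate 1. The 2 in the other direction became 1 without palbociclib replicate 1 and 4 without GSK3326595 replicate 2 or with library totals as the scaling. The 5 glycolysis calls became 2 and 3 without palbociclib replicate 1 and replicate 2.

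**Figure D5:**
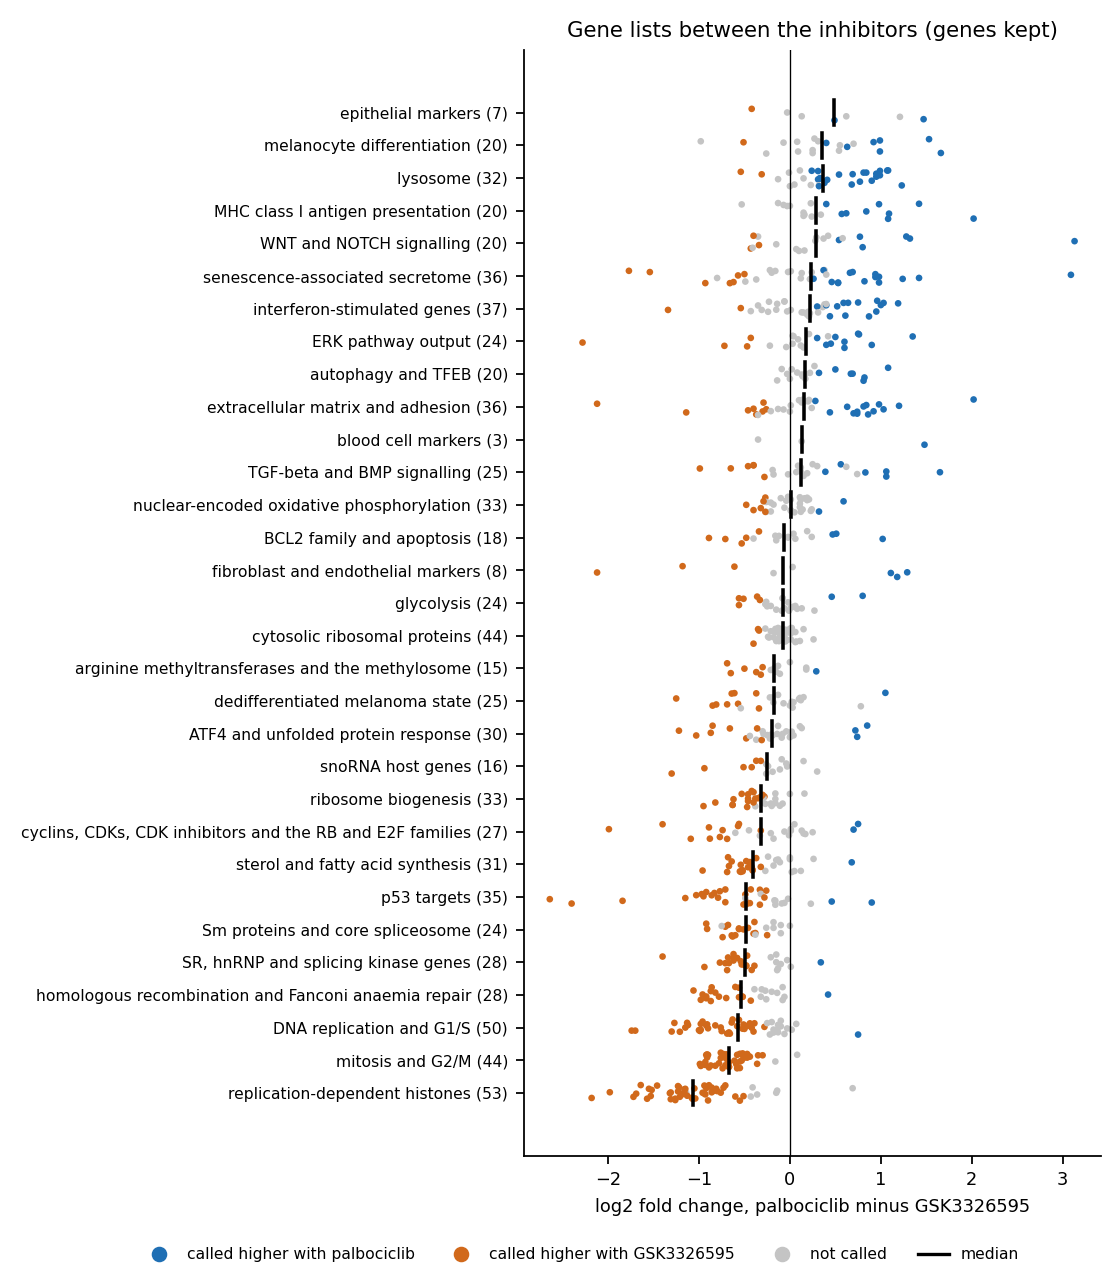
Log2 fold change, palbociclib minus GSK3326595, for each kept member of the 31 gene lists (number kept in brackets), ordered by the list's median (black bar); blue and orange points are called and grey points are not. Histone, mitosis, replication, repair, splicing and p53 lists lie to the left, the lysosome, MHC class I, melanocyte and epithelial marker lists to the right. In the melanocyte and epithelial marker lists 2 genes each passed the count filter through palbociclib only, and 1 melanocyte gene through GSK3326595 only.

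Markers of other cell types were measured beside these lists, because type I collagen and other matrix genes are also markers of fibroblasts. Summed over 10 fibroblast and endothelial markers the libraries held 51.6 and 43.7 CPM with palbociclib, 83.7 and 77.9 CPM with GSK3326595, and 55.95 and 45.01 CPM in DMSO, and the GSK3326595 sums moved with COL1A1 and ACTA2 (-1.18 ± 0.165). The defining fibroblast gene DCN and endothelial gene CDH5 were under 1 CPM in all 6 libraries. Of the 8 markers kept, 3 were higher in each direction (37.5%, against 17.1% of all genes tested towards palbociclib and 19.3% towards GSK3326595). Those towards palbociclib were LUM (log2 fold change 1.29 ± 0.242, edgeR adjusted p = 0.00163), KDR (log2 fold change 1.18 ± 0.315, edgeR adjusted p = 0.0125) and PDGFRA (log2 fold change 1.11 ± 0.384, edgeR adjusted p = 0.0398). KDR lost its call without palbociclib replicate 2 (adjusted p = 0.111), GSK3326595 replicate 1 (0.0636) or with DESeq2 (0.0505). PDGFRA lost it without palbociclib replicate 1 (0.424, log2 fold change 0.54) or GSK3326595 replicate 2 (0.148), with library totals (0.0619) and with DESeq2 (0.0538), so 1 of the 3 was left with DESeq2.

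Epithelial markers summed to 707 and 784 CPM with palbociclib, 692 and 852 CPM with GSK3326595, and 754 and 819 CPM in DMSO, mostly KRT18 and KRT8. Of 7 kept, 2 were higher with palbociclib (28.6%, against 17.1% of all genes tested) and 1 with GSK3326595 (14.3%, against 19.3%), with a median of 0.49. Of the 7, 2 passed the count filter through palbociclib only, so the filter itself tilts this median towards palbociclib. KRT14 (log2 fold change 1.47 ± 0.23, edgeR adjusted p = 0.000549) and DSP (log2 fold change 0.49 ± 0.0977, edgeR adjusted p = 0.0024), of desmosomes, were higher with palbociclib and KRT8 (log2 fold change -0.42 ± 0.0886, edgeR adjusted p = 0.0033) with GSK3326595. EPCAM and CDH1 were under 1 CPM in all libraries. Blood markers summed to 90.9 and 83.3 CPM with palbociclib, 72.3 and 74.8 CPM with GSK3326595, and 97.6 and 90 CPM in DMSO, mostly CD68. Of the 3 kept, 1 was called, higher with palbociclib (33.3%, against 17.1% of all genes tested). This was LYZ (log2 fold change 1.48 ± 0.225, edgeR adjusted p = 0.000434), which encodes lysozyme. The defining blood genes PTPRC and CD3E were at or near 0. The part of other cell types in the matrix and keratin results was not tested.

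Gene structure was compared as a property that neither the test nor the lists used. Outside the division lists, genes higher with GSK3326595 had a median of 10 exons and spanned 33.6 kb, those higher with palbociclib 9 exons and 26.7 kb, and those not called 8 exons and 26.1 kb. Their median levels were 36.7, 28.6 and 14 CPM, so called genes were also the more abundant. By number of exons, the share higher with GSK3326595 was 10.7% of 689 single-exon genes, 13.5% with 2 to 5 exons, 19.4% with 6 to 10, 24.5% with 11 to 20 and 20.2% of 1991 genes with more. In the same order 9.58%, 17.4%, 17.3%, 17.5% and 22.5% were higher with palbociclib. Median level rose with exon number as well, from 2.61 to 51.6 CPM, so this is a description of genes that differ in level and not a test of splicing.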

How the data were processed

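Total RNA of A375 cells was purified on RNeasy columns, depleted of ribosomal RNA and made into TruSeq v2 libraries, per the labels' protocols. For each library the authors deposited raw counts per NCBI Gene ID, without normalization. Tools in the submitters' processing notes are HISAT2, featureCounts 1.6.2, cutadapt 1.7, CASAVA 1.8.2 and limma, with build hg38. Not given in the sources used here are the annotation, the strand setting and the treatment of reads with several alignments, so antisense pairs and near-identical copies are uncertain. Symbols and positions are from the RefSeq table of GRCh38: 27745 IDs matched and 650 did not, and these held 0.233% to 0.508% of the counts of a library and stayed in the tests.

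Groups were taken from the labels. Genes with at least 10 counts in both libraries of either inhibitor were kept. A quasi-likelihood model in edgeR 4.0.16 (R 4.3.3) was fitted to the counts of all 6 libraries with TMM scaling and 1 coefficient per group, which left 3 residual degrees of freedom. Tests were two-sided with Benjamini-Hochberg adjustment over all genes kept. SE is |log2 fold change| over the root of F. The biological coefficient of variation was 0.0834. On simulated counts of 15924 genes for this comparison the fit recovered 50% of changes of 0.5, and 100% of changes of 1 and of 2, on the log2 scale. Of the simulated calls 5.11% were false. The changed genes were few and well above the count minimum, and all genes had the same dispersion. Recovery at low counts or with uneven spread was therefore not tried. With 2 libraries per group precision is set by their spread.

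The 31 gene lists (884 genes) and the comparison itself were chosen with earlier results of these data known. No set test was made. Some genes that these rules choose are not reported here, but they stay in the counts and medians. NDUFA4, of the oxidative phosphorylation list, had no match. Named outside the division lists are the 10 largest differences per direction with 5 CPM or more on average in the inhibitor libraries and no overlap, leaving out symbols of clones, small RNAs and pseudogenes. Further named are the 4 largest of each class by the same level and symbol limits, the 3 called members of each list with the smallest p in its main direction and 1 in the other, and 10 target genes chosen whatever their values. PTCHD4 was the called p53 target with the smallest p that holds the motif, and CCND2, SPATA7, E2F5 and other members outside these rules were named after their values were seen. Alternatives were DESeq2 1.42.0, DESeq2 size factors, library totals, TMM without division genes, filterByExpr, no filter, the 4 inhibitor libraries alone, the replicate block and each library left out. Exon numbers come from GENCODE v29, and 96.4% of genes kept had a value.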

Additional observations from a re-analysis of the deposited data

How the results depend on the processing

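Among 144 named genes no direction reversed under any of the 14 alternatives. A change of sign was counted only for genes called in the main fit or in the alternative. With DESeq2 size factors, TMM without the division genes, filterByExpr, no filter, the 4 inhibitor libraries alone, the replicate block or either DMSO library left out, no named gene lost its call. DESeq2 lost 5 calls and library totals 1, and leaving out palbociclib replicate 1, palbociclib replicate 2, GSK3326595 replicate 1 or GSK3326595 replicate 2 lost 17, 10, 4 and 10, which the report gives beside the genes it names. Total calls were 5793 and ranged from 4593 with DESeq2 to 5793 with TMM without the division genes among settings that kept all libraries and no block. Leaving out 1 library in turn gave between 1657 and 2891 genes higher with palbociclib and between 1760 and 2730 higher with GSK3326595. The lowest values were both without palbociclib replicate 1, where an arm has 1 library that is assumed to vary like the others, and without palbociclib replicate 2 the counts were 1735 and 1783. Genes set apart by 1 inhibitor numbered 374, with 295 to 391 when 1 library was left out and 278 with DESeq2, and the 4 inhibitor libraries alone give no such class. With the replicate number as a block (a paired fit), 7964 genes were called, 3703 higher with palbociclib and 4261 higher with GSK3326595, and 423 were set apart. Deviations from group means of libraries with the same number correlated at 0.233 (palbociclib and GSK3326595), 0.271 (palbociclib and DMSO) and 0.438 (GSK3326595 and DMSO) across genes, but the labels give the numbers no shared culture or day, so they were not treated as pairs. With that block some list counts moved by more than 1.5 times, among them ribosome biogenesis (18 to 28 higher with GSK3326595), ATF4 (8 to 15) and ribosomal proteins (3 to 9). Oxidative phosphorylation (6 to 10) and glycolysis (5 to 9) moved in the same direction. Towards palbociclib, oxidative phosphorylation went from 2 to 6 and TGF-beta and BMP from 6 to 11. Low counts limit the list members under 1 CPM, and differences of 0.5 on the log2 scale were recovered in 50% of simulated cases.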

Other observations

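Small nucleolar RNAs of the SNORD116 cluster, processed from an imprinted host transcript on chromosome 15, were noticed after the values were seen. Of 17 copies kept, 9 were higher with palbociclib and none was higher with GSK3326595 by edgeR. Over all genes tested the shares in these directions were 17.1% and 19.3%. The copies had a median log2 fold change of 1.20 and a range from 0.06 to 2.00. SNORD116-21 was at 8.795 and 8.04 CPM with palbociclib, 2.28 and 1.92 CPM with GSK3326595 and 4.87 and 5.01 CPM in DMSO (log2 fold change 2.00 ± 0.212, edgeR adjusted p = 4.91e-05), and IPW, a noncoding RNA of the same locus, was at 38.4 and 38.3 CPM with palbociclib, 23.4 and 21.4 CPM with GSK3326595 and 31.8 and 32.3 CPM in DMSO (log2 fold change 0.78 ± 0.101, edgeR adjusted p = 0.000161). Both had GSK3326595 libraries below DMSO and palbociclib libraries above it. Reads of these similar copies may be assigned to the wrong one, and RTL1, imprinted at another locus, was the 1 gene kept there.

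CD274, which encodes the checkpoint ligand PD-L1, was on no list and was also named after its values were seen. It was at 4.25 and 3.35 CPM with palbociclib, 14.1 and 9.94 CPM with GSK3326595 and 6.098 and 6.73 CPM in DMSO (log2 fold change -1.66 ± 0.215, edgeR adjusted p = 0.000157), lowest with palbociclib and highest with GSK3326595, the opposite order to HLA-B. SPP1, the secreted osteopontin, was at 62.1 and 55.7 CPM with palbociclib, 12.8 and 20.1 CPM with GSK3326595 and 9.34 and 13.6 CPM in DMSO (log2 fold change 1.84 ± 0.19, edgeR adjusted p = 4.15e-05), with palbociclib libraries above the other 4. LMNB1, which encodes the nuclear lamina protein lamin B1, was at 48.4 and 54.7 CPM with palbociclib, 150.1 and 156 CPM with GSK3326595 and 238 and 285 CPM in DMSO (log2 fold change -1.57 ± 0.105, edgeR adjusted p = 4.84e-06), with palbociclib lowest and DMSO highest.

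MIR6724-4, a microRNA gene within the ribosomal RNA repeats, was called higher with GSK3326595 on the strength of 1 library. It had 4647 counts in GSK3326595 replicate 2 and 10 in GSK3326595 replicate 1, against 10 and 13 with palbociclib and 5 and 3 in DMSO. Its fitted fold change is therefore not given as a difference between the inhibitors.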
